A study of Mus musculus with 8 samples.

Results

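The axonal cytoskeleton was examined through 10 genes: the neurofilament subunits Nefl, Nefm and Nefh, the related filament gene Ina, the microtubule genes Tubb3 and Mapt, the stathmins Stmn1 and Stmn3, the growth cone gene Gap43 and the tubulin-binding gene Dpysl2. The genes were selected by symbol. Each symbol matched 1 of the 28662 transcripts with normalized counts, and all 10 were among the 10588 genes tested, which had at least 10 RPM (counts scaled to a common column total) in at least 1 mouse.

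Poly(A)+ RNA of the right cortex was sequenced in 4 bigenic and 4 nontransgenic mice, all of strain C57BL/6. Bigenic mice carried Camk2α-tTA, in which a promoter of excitatory forebrain neurons drives the tetracycline transactivator, and tetO-ΔNLS-hTDP-43, a human TDP-43 whose nuclear localization signal is mutated. A doxycycline diet silenced the transgene up to day 28, and cortex was taken after 10 days without the diet. The nontransgenic controls came from the same breeding, carried neither transgene and followed the same diet, so the effects of tTA and of ΔNLS-hTDP-43 cannot be told apart in these 8 mice. Mice are numbered here in the order of the deposited columns, which is not known to be the order of the labelled replicates.

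Neurofilaments are heteropolymers of a light (Nefl), a medium (Nefm) and a heavy (Nefh) subunit together with α-internexin (Ina). They fill the axon, set its calibre and are among the longest-lived proteins of the neuron, and the light subunit released into blood is used as a marker of axonal injury. Microtubules, built of tubulins such as Tubb3, run beside them, tau (Mapt) and Dpysl2 favour their assembly, and stathmins bind free tubulin. TDP-43 is an RNA-binding protein that prefers runs of alternating U and G, written T and G in the DNA letters used here.

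Such runs are not a shared feature of the 10 transcripts. The first-listed GENCODE transcript of each gene was searched on its own strand for unbroken alternation of T and G (TGTGTG or GTGTGT, or longer). Nefh, Ina, Stmn1 and Stmn3 held 0 runs of at least 6 bases. Nefl held 2, Nefm 1, Mapt 4, Gap43 3, Tubb3 1 and Dpysl2 2. Among the 6843 genes tested that have such a transcript, 81.1% held a run of at least 6 bases and 11.4% a run of at least 10, with no adjustment for transcript length, which lay between 1060 and 5253 bases for the 10 genes. A match is a string of letters and not a binding site. The sequences below show, for comparison between the genes that moved and those that did not, both runs of Nefl and the longest run of each of the other genes that had one, 5′ to 3′ on the transcript strand of NCBIM37 (mm9) with the run in capitals.
Nefl, upstream run: ctcatgaatgGTGTGTtgtctgctta
Nefl, downstream run: tattcaatccTGTGTGccataataaa
Nefm: ataagccaaaTGTGTGgtgatgtgtc
Mapt: taacgtggGTGTGTGTGccccttct
Gap43: gttccaaGTGTGTGTGTGcaatgtt
Tubb3: aaggtagccGTGTGTGacatcccac
Dpysl2: acttctcaGTGTGTGTGTtgtggtgg
The windows lie at chr14:68706451-68706476 and chr14:68707102-68707127 on the plus strand (Nefl), chr14:68737580-68737605 on the minus strand (Nefm), chr11:104190217-104190241 on the plus strand (Mapt), chr16:42248771-42248795 on the minus strand (Gap43), chr8:125945277-125945301 on the plus strand (Tubb3) and chr14:67422904-67422929 on the minus strand (Dpysl2). The Tubb3 run is in coding sequence and all others are in 3′ UTRs. The runs of 10 and 11 bases in Dpysl2 and Gap43 are the longest of the 10 genes.

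Between about 10.6 M and 31.9 M reads lay on genes in each mouse. Cortical markers were present, such as Slc17a7, the vesicular glutamate transporter of excitatory neurons, which the nontransgenic mice held at 13168 ± 547 normalized counts (SD, n = 4). The second bigenic mouse stood apart. It was the shallowest library, and over the genes tested its log2 values had a Pearson r of 0.950 to 0.953 with the other 3 bigenic mice, which had 0.980 to 0.996 among themselves. Its distance from those 3 mice followed GC content, with a median log2 difference of -0.23 over the quartile of genes lowest in GC and 0.27 over the highest quartile. Values of the 10 genes and counts of the gene lists are therefore also given without it, an alternative in which limma compares 3 bigenic with 4 nontransgenic mice. This mouse was singled out after seeing the data, so p-values without it are not independent support.

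With all 8 mice, 2 of the 10 genes were upregulated (Ina and Nefh) and 2 were downregulated (Nefl and Stmn1) at a limma adjusted p-value below 0.05, and 6 did not pass. Over all 10588 genes tested the same test called 20.5% higher and 15.4% lower (35.9% in either direction), so the share of the 10 genes called is close to that of all genes. The median log2(fold change) was 0.06 over the 10 genes and 0.03 over all genes tested. Normalized counts of the groups did not overlap for 3 of the 10 genes (Ina, Nefh and Stmn1), against 39.0% of all genes tested. Without the second bigenic mouse, the same 2 genes were called higher, against 25.3% of all genes, and 4 were called lower (Nefl, Stmn1, Gap43 and Stmn3), against 20.2%. In either direction this fit called 45.5% of all genes. The groups then did not overlap for 6 of the 10 genes, against 48.4% of all genes. In tissue RNA, fewer cells of a type and less RNA per cell cannot be told apart.

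**Figure D1:**
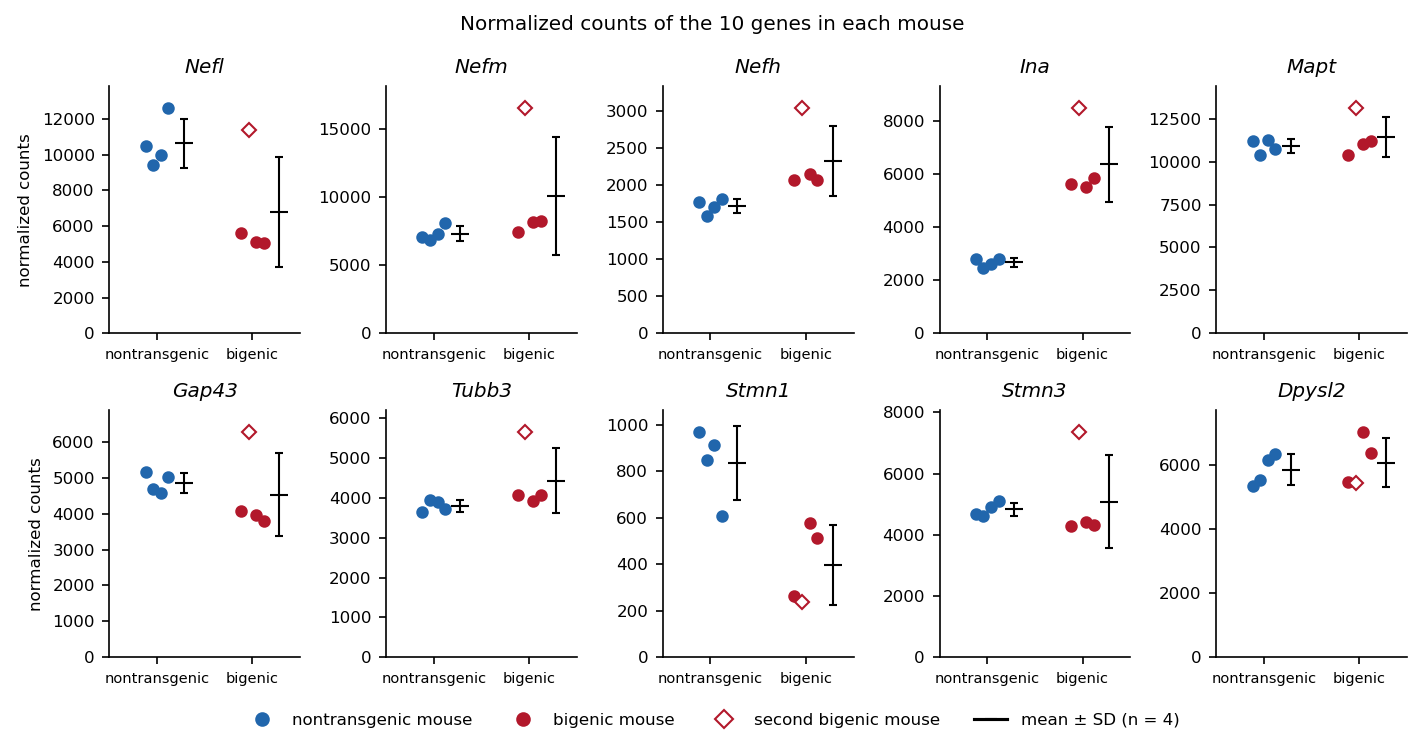
Normalized counts (vertical axes, from 0) of the 10 genes in 4 nontransgenic (blue) and 4 bigenic (red) mice, with the mean and SD of each group in black. The second bigenic mouse (open diamond) was the highest of the 8 mice for 7 genes and the lowest for Stmn1, and the bigenic mice all lay above the nontransgenic mice for Ina and Nefh.

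Ina, encoding α-internexin, the filament subunit that appears early in neuronal development and persists in cortical axons, had the smallest adjusted p-value of the 10 genes. Its normalized counts were 2815, 2461, 2622 and 2805 in the nontransgenic mice and 5630, 8456, 5506 and 5838 in the bigenic mice. Every bigenic mouse lay well above every nontransgenic mouse. The means were 6358 ± 1406 (SD, n = 4) and 2676 ± 168 (SD, n = 4), and the log2 fit placed bigenic mice 2.34-fold higher (log2(fold change) 1.23, SE 0.13, limma adjusted p-value = 0.000160). Without the second bigenic mouse the log2(fold change) was 1.08 (limma adjusted p-value = 1.64e-06), and Ina passed in all 8 fits that left out 1 mouse. The gene (uc008huk.1) lies on chromosome 19, 47089188 to 47099817 on the plus strand, where an exon of Nt5c2 overlaps it on the opposite strand. No source used here says that reads were assigned by strand, and reads of both genes could have been counted together.

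Nefl, the light subunit on which the other subunits assemble, was downregulated. Nontransgenic mice had 10506, 9434, 9994 and 12587 normalized counts of Nefl and the bigenic mice 5616, 11381, 5134 and 5086. In 3 bigenic mice Nefl was below every nontransgenic mouse, and in the second bigenic mouse it was within their range. The means were 6804 ± 3061 and 10630 ± 1376 (SD, n = 4 each), and the log2 fit placed bigenic mice 1.65-fold lower (log2(fold change) -0.73, SE 0.23, limma adjusted p-value = 0.0362). Without the second bigenic mouse the 3 remaining bigenic mice averaged 5279 ± 293, and Nefl reached a log2(fold change) of -1.0 in that limma fit (adjusted p-value = 1.66e-05). When any of the other 7 mice was left out instead, Nefl no longer passed, with log2(fold changes) between -0.78 and -0.62 and limma adjusted p-values between 0.0607 and 0.0901. Nefl (uc007uln.1) lies on chromosome 14, 68701920 to 68707152, on the plus strand.

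Nefm, the medium subunit, is encoded beside Nefl on the minus strand of chromosome 14, and 30.2 kb separate their first-listed transcripts. For Nefm the nontransgenic mice had 7026, 6838, 7253 and 8087 normalized counts and the bigenic mice 7397, 16472, 8135 and 8219. Outside the second bigenic mouse, the highest value, the groups overlapped. Its log2(fold change) was 0.38 (95% interval -0.11 to 0.87, limma adjusted p-value = 0.196) with all mice and 0.12 (limma adjusted p-value = 0.197) without the second bigenic mouse. A longer Nefm transcript of GENCODE reaches across Nefl and covers 1108 bases of Nefl exons on the opposite strand. The deposited table counts Nefm as uc007ulo.1, and its first-listed transcript spans 68737340 to 68742903. Whether uc007ulo.1 covers those Nefl bases was not checked. If it does, reads of both genes could have been counted together, since no source used here says that reads were assigned by strand. The ratio of Nefm to Nefl carries the same limit.

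Nefh, the heavy subunit with the long phosphorylated tail, was upregulated. Counts of Nefh, again normalized, were 1770, 1582, 1705 and 1808 in the nontransgenic mice and 2060, 3030, 2145 and 2072 in the bigenic mice. All bigenic mice exceeded all nontransgenic mice, and 3 of the 4 bigenic mice were close to each other. Nefh was 1.34-fold higher in bigenic mice (log2(fold change) 0.42, SE 0.12, limma adjusted p-value = 0.0255), with a log2(fold change) without the second bigenic mouse of 0.29 in limma, at an adjusted p-value of 0.00416. Nefh no longer passed when the first, the second or the third nontransgenic mouse was left out, with limma adjusted p-values of 0.0543, 0.0774 and 0.0638. Nefh (uc007hvm.1) is on the minus strand of chromosome 11, 4838757 to 4848067.

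**Figure D2:**
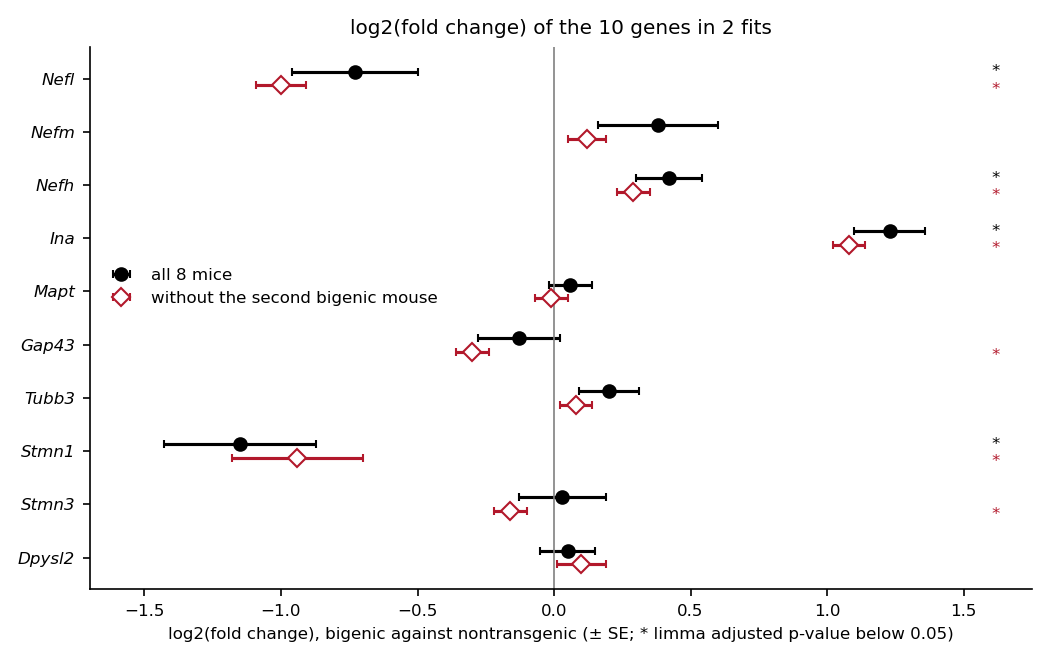
log2(fold change) of each gene in bigenic against nontransgenic mice (horizontal axis, ± standard error) from limma with all 8 mice (black circles) and without the second bigenic mouse (red diamonds); an asterisk marks a limma adjusted p-value below 0.05. Ina, Nefh, Nefl and Stmn1 carry asterisks in both fits, and Gap43 and Stmn3 only without the second bigenic mouse.

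Because the filament subunits assemble together, their ratios were compared within each mouse, which removes the scaling between libraries. Of the 8 gene pairs compared, 4 had ratios that did not overlap between the groups and reached the smallest p-value that an exact two-sided permutation test over 70 arrangements allows (0.0286), and their adjusted p-value over the 8 pairs was 0.0571, above the 0.05 threshold. The ratio of Nefm to Nefl was 0.67, 0.72, 0.73 and 0.64 in the nontransgenic mice and 1.32, 1.45, 1.58 and 1.62 in the bigenic mice. Thus Nefl had the higher count of the pair in all nontransgenic mice and Nefm in all bigenic mice, the second bigenic mouse included. On the log2 scale the ratio of Nefm to Nefl was -0.54 ± 0.09 (SD, n = 4) in nontransgenic mice and 0.57 ± 0.14 (SD, n = 4) in bigenic mice, a difference of 1.11 with all mice and 1.12 without the second bigenic mouse.

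Ratios of Ina and Nefh to Nefl were also higher in every bigenic mouse. The ratio of Ina to Nefl was 0.27, 0.26, 0.26 and 0.22 in the nontransgenic mice and 1.0, 0.74, 1.07 and 1.15 in the bigenic mice, a log2 difference of 1.95 (exact permutation p = 0.0286, adjusted p = 0.0571). The ratio of Nefh to Nefl differed by 1.15 on the log2 scale (exact permutation p = 0.0286, adjusted p = 0.0571). Nefh and Nefm, by contrast, had overlapping ratios, with a log2 difference of 0.04 (exact permutation p = 0.857) and a lower ratio in the second bigenic mouse (0.18) than in the other 7 mice (0.22 to 0.28). In the second bigenic mouse the ratio of Nefm to Nefl (1.45) lay within the range of the other bigenic mice, and its ratios of Ina and Nefh to Nefl (0.74 and 0.27) were the lowest of the bigenic mice.

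**Figure D3:**
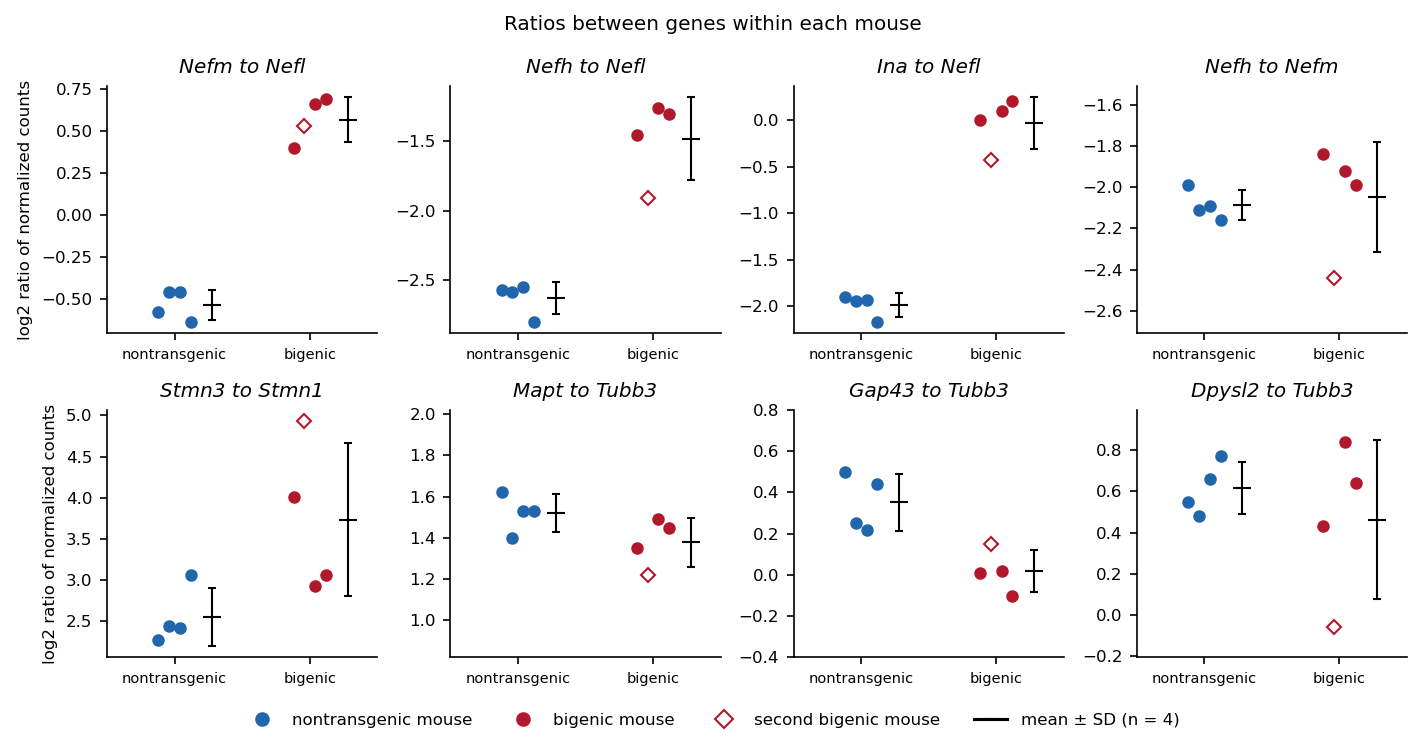
log2 ratios of normalized counts of 8 gene pairs within each mouse (vertical axes, scaled per panel), nontransgenic in blue and bigenic in red, with mean and SD in black. The groups do not overlap for the 3 ratios to Nefl and for Gap43 to Tubb3.

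Tubb3, the neuron-specific β-tubulin, did not pass the test. Among nontransgenic mice, normalized counts were 3644, 3942, 3901 and 3709, and among bigenic mice they were 4060, 5633, 3910 and 4080. The third bigenic mouse lay within the nontransgenic range, and the first and the fourth were slightly above it. Limma gave a log2(fold change) of 0.20 (95% interval -0.05 to 0.46, adjusted p-value = 0.189) and 0.08 without the second bigenic mouse (limma adjusted p-value = 0.262). Of the 50-base windows in Tubb3 exons, 88.8% occur once in the genome, and only uniquely mapping reads were counted. Tubb3 (uc009nvt.1) is on the plus strand of chromosome 8, 125935324 to 125945915.

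Mapt, encoding tau, had the lowest coefficient of variation of the 10 genes in both groups (3.7% in nontransgenic and 10.2% in bigenic mice). The nontransgenic mice had 11188, 10404, 11255 and 10747 normalized counts of Mapt and the bigenic mice 10384, 13087, 11015 and 11179. The second bigenic mouse lay above the nontransgenic range and the first just below it. Limma gave Mapt a log2(fold change) of 0.06 (95% interval -0.12 to 0.25, adjusted p-value = 0.577), with the sign turned but near 0 (-0.01) without the second bigenic mouse. The ratio of Mapt to Tubb3 differed by -0.14 on the log2 scale (exact permutation p = 0.143, adjusted p = 0.190). Mapt (uc007lwg.1) is on the plus strand of chromosome 11, 104092704 to 104193404. These are totals per gene, and the balance of tau isoforms was not analysed here.

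Stmn1, encoding stathmin, which binds tubulin dimers and is most abundant in growing neurons, was downregulated. In nontransgenic mice there were 967, 850, 914 and 609 normalized counts, and in bigenic mice 264, 240, 577 and 515. The groups did not overlap, although the fourth nontransgenic mouse was close to the third bigenic mouse. Stmn1 was 2.22-fold lower in bigenic mice (log2(fold change) -1.15, SE 0.28, limma adjusted p-value = 0.0117). Without the second bigenic mouse it was at -0.94 on the log2 scale (limma adjusted p-value = 0.00932), and it passed in all 8 fits that left out 1 mouse. The bigenic mice formed a lower and a higher pair, and their coefficient of variation was 43.1%, against 18.9% among the nontransgenic mice. Stmn1 had the fewest reads of the 10 genes (about 116 in the second bigenic mouse), and 59.5% of the 50-base windows in its exons occur once in the genome, the lowest share of the 10 genes. These windows cover all GENCODE exons of the gene and not the counted transcript alone. Reads from the other windows were not counted, and how much of the counted transcript they make up was not measured. Stmn1 (uc008vfc.2) is on the plus strand of chromosome 4, 134024235 to 134029758, and a GENCODE gene model (AL669982.1) overlaps its exons on the same strand.

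Stmn3, a membrane-anchored stathmin of mature neurons also called SCLIP, did not pass with all mice. Nontransgenic mice had 4690, 4632, 4908 and 5114 normalized counts of Stmn3 and the bigenic mice 4277, 7344, 4416 and 4324. The 3 other bigenic mice were tightly grouped below all nontransgenic mice, and the second lay far above them. For Stmn3 the log2(fold change) was 0.03 (95% interval -0.32 to 0.39, limma adjusted p-value = 0.883) with all mice, and -0.16 (limma adjusted p-value = 0.0453) without the second bigenic mouse, so 1 library decides its direction and its call. The ratio of Stmn3 to Stmn1 differed by 1.18 on the log2 scale, with overlapping groups (exact permutation p = 0.0857, adjusted p = 0.137), and by 0.78 without the second bigenic mouse. Stmn3 (uc008olt.1) is on the minus strand of chromosome 2, 181041164 to 181049205.

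Gap43 encodes a phosphoprotein of growth cones and presynaptic terminals that marks axon growth and sprouting. Nontransgenic mice held 5150, 4693, 4558 and 5021 normalized counts of Gap43 and the bigenic mice 4076, 6254, 3959 and 3806. As for Stmn3, the 3 other bigenic mice were below the nontransgenic range and the second was above it. For Gap43 the log2(fold change) was -0.13 (95% interval -0.46 to 0.19, limma adjusted p-value = 0.506) with all mice and -0.30 (limma adjusted p-value = 0.00292) without the second bigenic mouse. Relative to Tubb3 the second bigenic mouse no longer stood on the other side: the ratio of Gap43 to Tubb3 was 1.41, 1.19, 1.17 and 1.35 in the nontransgenic mice and 1.0, 1.11, 1.01 and 0.93 in the bigenic mice (log2 difference -0.33, exact permutation p = 0.0286, adjusted p = 0.0571). Gap43 (uc007zfv.1) is on the minus strand of chromosome 16, 42248555 to 42340764.

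Dpysl2, encoding CRMP2, which carries tubulin dimers to growing axon ends, did not pass. Its normalized counts were 5334, 5515, 6154 and 6326 in nontransgenic mice and 5465, 5412, 6997 and 6357 in bigenic mice. The values of the groups were interleaved, and the second bigenic mouse was the lowest of its group. For Dpysl2 the log2(fold change) was 0.05 (95% interval -0.18 to 0.28, limma adjusted p-value = 0.724) and 0.10 without the second bigenic mouse. Its ratio to Tubb3 differed by -0.15 on the log2 scale (exact permutation p = 0.571, adjusted p = 0.653). Dpysl2 (uc007uko.1) is on the minus strand of chromosome 14, 67421701 to 67487525.

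Levels of different genes were compared per kb of the first-listed transcript. In the nontransgenic mice Stmn3 was the highest of the 10 genes with 4257 ± 194 normalized counts per kb (SD, n = 4), followed by Gap43 (3419 ± 195) and Nefl (3145 ± 407), whose ranges overlapped. Nefm (2190 ± 165), Mapt (2075 ± 76.0) and Tubb3 (2034 ± 77.6) formed a group in which neighbours overlapped. Dpysl2 (1290 ± 107) stood alone, Ina (826 ± 52.0) and Stmn1 (788 ± 149) overlapped, and Nefh (429.7 ± 24.8) was the lowest. Lengths were not corrected for stretches where reads do not map uniquely. Stmn1 and Tubb3 had the lowest shares of exon windows that occur once (59.5% and 88.8%), so their levels and ranks may be understated. In the bigenic mice without the second, the means were 1562 normalized counts per kb for Nefl, 1746 for Ina and 2375 for Nefm, against 3145, 826 and 2190 in the nontransgenic mice. Nefl was the highest of the 4 filament genes in the nontransgenic mice, and Nefm and Ina had higher means than Nefl in these 3 bigenic mice. With all 4 bigenic mice the means were 3016 for Nefm, 2013 for Nefl and 1962 for Ina, and the ranges of Nefl and Ina overlapped.

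**Figure D4:**
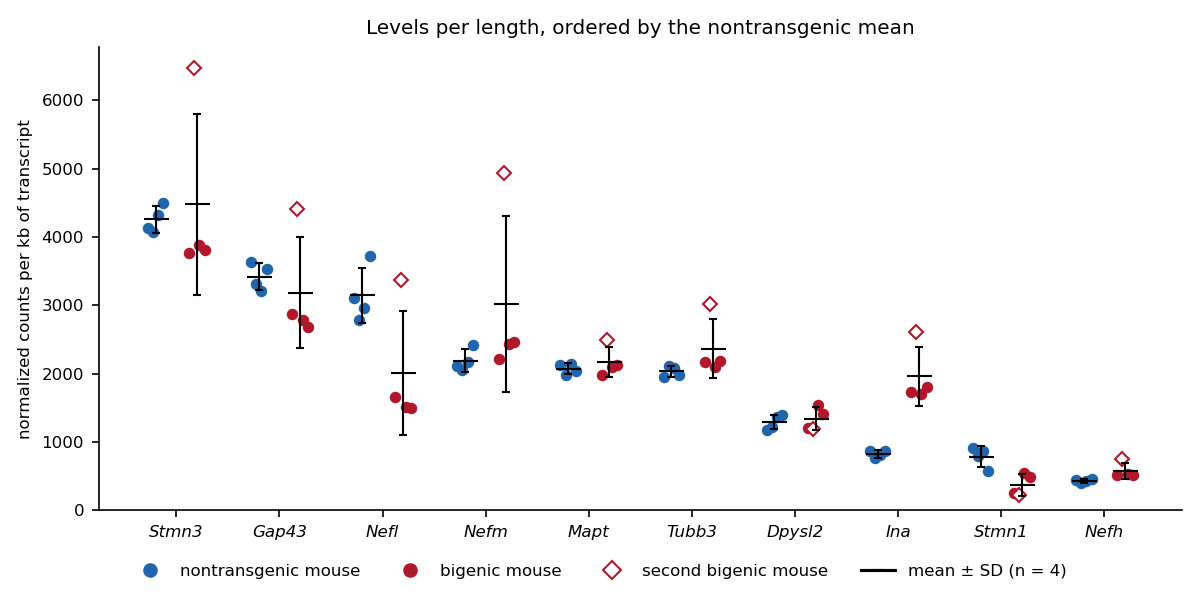
Normalized counts per kb of transcript (vertical axis, from 0) for the 10 genes, ordered by their nontransgenic mean, with 4 nontransgenic (blue) and 4 bigenic (red) mice and the mean and SD in black. Nefl is lower in the bigenic mice other than the second, and Ina is higher in all 4 bigenic mice. The open diamonds of the second bigenic mouse lie highest for 7 genes.

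The second bigenic mouse differed from the other 3 by unequal amounts among the 10 genes. Its log2 value exceeded their mean by 1.11 for Nefl and 1.06 for Nefm, more than for 98.8% and 98.5% of the genes tested, and by 0.76 for Stmn3, 0.66 for Gap43, 0.58 for Ina, 0.53 for Nefh, 0.49 for Tubb3 and 0.27 for Mapt. Its log2 value minus their mean was -0.21 for Dpysl2 and -0.83 for Stmn1. Transcripts of the 10 genes had a GC content between 48.1% (Dpysl2) and 58.4% (Nefh), and Nefl, with the largest excess, was at 48.8%. When each mouse was corrected for a quadratic dependence on length and GC content, a choice made after seeing the data, Ina (log2(fold change) 1.13), Nefh (0.26), Nefl (-0.72) and Stmn1 (-1.12) still passed, with limma adjusted p-values of 3.33e-05, 0.0324, 0.0330 and 0.0112.

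The wider cytoskeleton was described by 10 lists of 164 other genes, of which 147 were tested. Of these, 29 were upregulated and 32 downregulated (35 and 38 without the second bigenic mouse), and their median log2(fold change) was 0.04. Over all genes tested the shares were 20.5% and 15.4% (25.3% and 20.2% without the second bigenic mouse). The filament linkers, giant proteins that tie cytoskeletal filaments together, were the list with the highest share called. All 3 tested were upregulated: Plec (1.26, limma adjusted p-value = 0.000701), Dst (0.83, limma adjusted p-value = 0.000326) and Macf1 (0.28, limma adjusted p-value = 0.0141), where the first number is the log2(fold change). All 3 also passed without the second bigenic mouse, and Macf1 no longer passed without the third nontransgenic mouse (limma adjusted p-value = 0.0512). With the correction for length and GC content, 2 of these 3 linkers passed, and 2 passed at an adjusted p-value below 0.01 without that correction. Among other intermediate filament genes, 1 of 6 tested was upregulated (the nuclear lamin Lmnb1, log2(fold change) 0.41), and 0 were downregulated by limma or by limma's voom (1 had an unadjusted p below 0.05, lower). Lmna, which was highest in the second bigenic mouse, did not pass (log2(fold change) 0.71, limma adjusted p-value = 0.0712). Without that mouse 2 of the 6 were called higher and 1 lower, with Lmna at 0.39 (limma adjusted p-value = 0.0259) and Nes, encoding nestin, at -0.48 (limma adjusted p-value = 0.00215) on the log2 scale. Lmnb1 no longer passed without the first nontransgenic mouse (limma adjusted p-value = 0.0555).

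Among 11 other tubulins tested, 0 were upregulated by limma or its voom method (1 had an unadjusted p below 0.05, higher). The 2 downregulated were Tuba1a (7052 ± 425 normalized counts in nontransgenic and 3878 ± 1209 in bigenic mice, log2(fold change) -0.93, limma adjusted p-value = 0.00886) and Tubb2a (-0.41, limma adjusted p-value = 0.0423). Without the second bigenic mouse 4 tubulins were called lower, and Tubb2a no longer passed when any of the other 7 mice was left out (limma adjusted p-values between 0.0609 and 0.108). Tubulin genes share long near-identical stretches, so their values are uncertain where only unique reads are kept. Of 26 microtubule associated proteins, 7 rose and 4 fell (9 and 6 without the second bigenic mouse). For both lists the shares of all genes tested were 20.5% higher and 15.4% lower (25.3% and 20.2% without that mouse). Clasp1, which stabilizes growing microtubule ends, rose by 0.87 on the log2 scale (limma adjusted p-value = 3.51e-05), and Mtap6, which protects microtubules from cold, by 0.56 (limma adjusted p-value = 0.000474). The 4 that fell were Tppp (-0.59), Dclk1 (-0.48), Mtap2 (-0.38), the dendritic counterpart of tau, and Clasp2 (-0.29), which no longer passed without the first nontransgenic mouse (limma adjusted p-value = 0.0606).

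Of 6 relatives of Stmn1 and Dpysl2, 2 were downregulated and 0 upregulated by limma or its voom method, with 0 more at an unadjusted p below 0.05. The shares of all genes tested were 20.5% higher and 15.4% lower, or 25.3% and 20.2% without the second bigenic mouse. Stmn2, the growth-associated stathmin whose human transcript is misspliced when nuclear TDP-43 is lost, had 9552 ± 261 normalized counts in nontransgenic and 7694 ± 1172 in bigenic mice (log2(fold change) -0.32, limma adjusted p-value = 0.0319), and Dpysl4 was lower as well (log2(fold change) -0.38, limma adjusted p-value = 0.0103). Both passed without the second bigenic mouse. Dpysl4 passed in all 8 fits that left out 1 mouse, and Stmn2 in none of the 7 that left out another mouse (limma adjusted p-values between 0.0505 and 0.0840). Stmn4 (0.05), Crmp1 (-0.05), Dpysl3 (0.09) and Dpysl5 (-0.22) did not pass. Among enzymes that modify or sever tubulin, 4 of 17 rose and 2 fell (6 and 2 without the second bigenic mouse). The rises were in Ttll5, a glutamylase (1.06), the carboxypeptidase Vash1 (0.56), the deacetylase Sirt2 (0.37) and the katanin gene Katnal1 (0.30), and the falls in the deglutamylase Agtpbp1 (-0.49) and in Ttll7 (-0.29), each as log2(fold change). Sirt2 no longer passed when the first bigenic or the first or second nontransgenic mouse was left out (limma adjusted p-values between 0.0638 and 0.0810).

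Of 21 kinase genes that act on neurofilaments and tau, 5 were upregulated and 4 downregulated, shares close to the 20.5% and 15.4% of all genes. Without the second bigenic mouse 6 were called higher and 4 lower, against 25.3% and 20.2% of all genes. The largest fall in log2(fold change) was in Mapk9 (-1.05, limma adjusted p-value = 2.46e-05), a JNK kinase, followed by Cdk5r1 (-0.82, limma adjusted p-value = 3.47e-05), the p35 activator of Cdk5, Csnk2a1 (-0.40) and Mapk10 (-0.36). The rises were in the tau tubulin kinase Ttbk1 (1.13), Mark4 (0.50), Csnk1d (0.48), Mark2 (0.33) and Dyrk1a (0.26). Leaving out 1 mouse at a time gave 3 to 6 higher and 3 to 5 lower. Dyrk1a passed only in the fit without the second bigenic mouse, Mark2 was lost without the fourth bigenic or the first, the second or the third nontransgenic mouse, and Mapk10 without the first or the third nontransgenic mouse. The axonal membrane skeleton had 6 of 16 genes upregulated and 1, Nrcam (-0.32), downregulated, with the same counts without the second bigenic mouse. Nrcam no longer passed without the first nontransgenic mouse (limma adjusted p-value = 0.0507). Ank3, the ankyrin of the axon initial segment, had 10002 ± 279 normalized counts in nontransgenic and 16408 ± 1045 in bigenic mice (log2(fold change) 0.71, limma adjusted p-value = 8.83e-05), and Epb4.1l3 rose by 0.53 on the log2 scale (limma adjusted p-value = 0.00240).

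**Figure D5:**
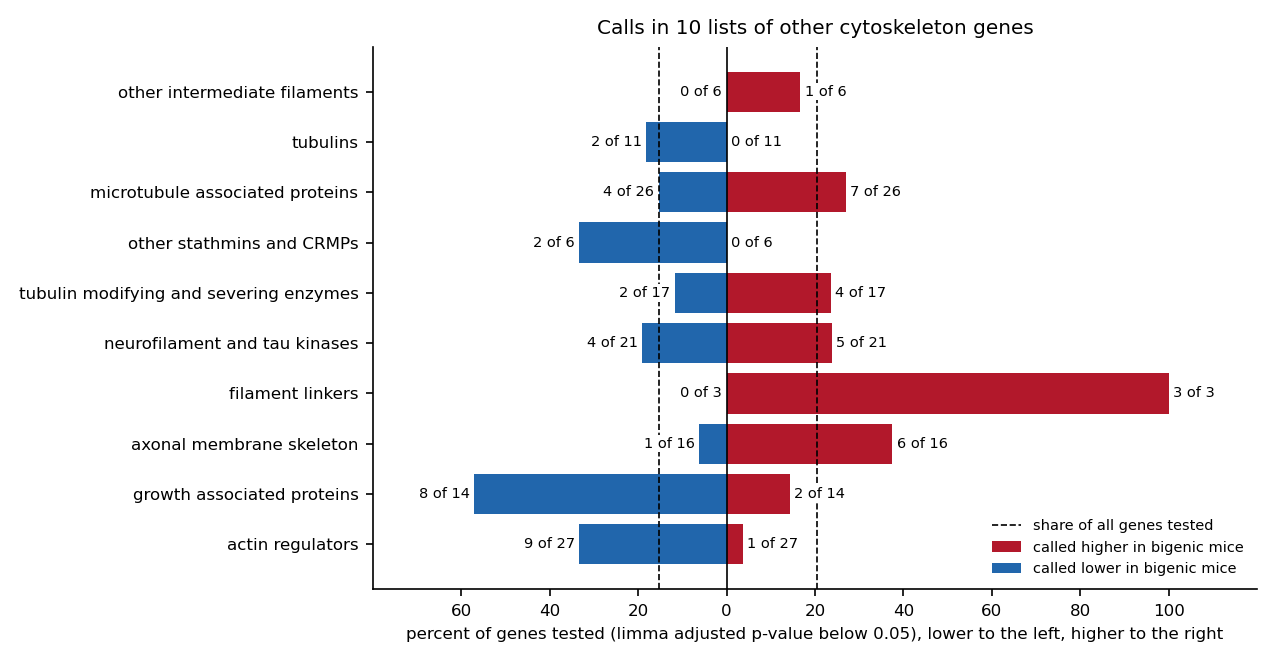
Percent of the tested genes of each of 10 lists that limma called higher (red, right) or lower (blue, left) in bigenic mice at an adjusted p-value below 0.05, with counts beside the bars and the shares of all genes tested (20.5% higher, 15.4% lower) as dashed lines. The filament linkers extend to 3 of 3 higher, and the growth associated proteins extend farthest to the lower side with 8 of 14.

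Marker genes of other cell types also differed between the groups, read against 20.5% of all genes higher and 15.4% lower. Without the second bigenic mouse these shares were 25.3% and 20.2%. Of 8 general neuronal markers 1 was higher and 3 were lower in bigenic mice (2 and 4 without the second bigenic mouse), with summed normalized counts of 117332 to 154341 in bigenic and 138774 to 157791 in nontransgenic mice. Layer 5 projection neuron markers, from cells rich in neurofilaments, summed to 3134 to 3950 and 4601 to 5310, and upper layer markers to 9035 to 10653 and 12980 to 14408, with 2 of 5 and 2 of 6 genes called lower by limma and 1 upper layer gene called higher. Astrocyte markers were lower in 4 of 6 genes (5 without the second bigenic mouse) and summed to 105432 to 124206 in bigenic and 130615 to 141387 in nontransgenic mice, and microglia markers were lower in 4 of 5 and summed to 3355 to 3896 and 4379 to 5083. Of 6 oligodendrocyte markers 1 was higher, with sums of 62647 to 81074 and 61010 to 77083, and of 6 endothelial markers 1 was lower, with sums of 3585 to 4261 and 4025 to 5117. Markers of the choroid plexus, the secretory epithelium of the ventricles, were higher in all 4 genes tested and summed to 8385 to 19459 in bigenic and 363 to 1203 in nontransgenic mice. The part of these differences in the values of the 10 genes was not tested.

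The genes whose log2 values were most like the mean of Nefl, Nefm and Nefh over the 8 mice were Srsf4 (Pearson r = 0.997), Hk1 (0.995) and Tubgcp2 (0.993). That mean, centred, was 0.69 in the second bigenic mouse and between -0.22 and 0.15 in the other 7, so likeness to it is largely likeness in 1 mouse. Between bigenic and nontransgenic mice none of the 3 passed the test, with limma adjusted p-values of 0.873, 0.974 and 0.919.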

How the data were processed

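Poly(A)+ RNA-seq libraries (50-base single-end reads) of 4 bigenic and 4 nontransgenic cortices were analysed from the processed tables. According to the study's methods, the authors removed adaptors (cutadapt), aligned reads to mm9 (Bowtie 0.12.7) and used only those with a unique position. The deposited signal is a normalized count per transcript, written as whole numbers after scaling by a factor per mouse. The size of 1 read in each column was estimated from gaps between whole numbers, which gives the approximate depths; 3 reads correspond to 1.94 to 6.20 normalized counts, and such floors cover counting error only. The second deposited table holds the authors' differential expression results (fold changes, p-values); only its identifiers and symbols were used. The columns name a group and an animal number found in no label, so no mouse was tied to a replicate number. The study's methods give 3 males among the 4 mice of each group, and no column was tied to a sex here. Beyond that, the mice of a group are known only as separate mice.

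Values were transformed as log2(value + 1), so fold changes of low genes are understated, and the groups were compared with limma 3.58.1 (lmFit, eBayes with trend) under R 4.3.3, adjusting p-values by Benjamini-Hochberg over 10588 genes. Gene ratios within a mouse were tested by exact two-sided permutation (scipy 1.17.1). The fit and the depth estimate were tested on simulated data. Positions, exons and transcripts come from GENCODE vM1 on NCBIM37, the same build. The 10 genes and the lists were chosen with earlier results of these data known, and a few list genes are not reported here and left out of list counts. Named genes are the 10, the 2 of each list with the lowest adjusted p-value, every gene of a list of at most 6, genes behind counts of at most 5, and the 3 most like the neurofilament mean. Alternatives were other pseudocounts (10, 0.1), filters, scalings, array weights, a threshold of 0.01 and leaving out each mouse; removal of a GC and length trend and limma's voom on approximate reads were added after seeing the data.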

Additional observations from a re-analysis of the deposited data

Results flagged for a closer look

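Values far from the rest of their group of 4 mice were looked for with Dixon's ratio above its 95% critical value in 86 groups, made of 35 genes and 8 gene ratios in each genotype. Chance marks about 1 in 20 groups; 14 were marked here, 10 of them through the second bigenic mouse.

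In the second bigenic mouse 7 of the 10 genes lay far above the other bigenic mice: Nefl (11381 normalized counts against 5086 to 5616), Nefm (16472 against 7397 to 8219), Nefh (3030 against 2060 to 2145), Ina (8456 against 5506 to 5838), Gap43 (6254 against 3806 to 4076), Tubb3 (5633 against 3910 to 4080) and Stmn3 (7344 against 4277 to 4416). The same mouse was high for Lmna (2358 normalized counts against 888 to 1058), Ttll5 (2074 against 1589 to 1601) and Mapk9 (3212 against 2772 to 2799).

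Among the nontransgenic mice, the fourth was high for Plec (6981 normalized counts against 5433 to 5598) and the second was low for Ank3 (9585 against 10119 to 10175). The fourth nontransgenic mouse also had a low log2 ratio of Nefh to Nefl (-2.80 against -2.58 to -2.55) and of Ina to Nefl (-2.17 against -1.94 to -1.90). Its Nefl value was the highest of the 8 mice.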

How the results depend on the processing

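No paired analysis was possible because the columns carry no replicate number of the labels. With array weights 4 of the 10 genes were called higher (Nefm and Dpysl2 in addition), against 2, 3 lower (Gap43 in addition), against 2, 51 genes of the other cytoskeleton lists higher, against 29, and 6455 of all genes, against 3796. At an adjusted p-value below 0.01 limma called 1 of the 10 genes higher (Ina) and 0 lower. Unadjusted limma p-values were 0.00719 for Nefh, 0.00242 for Stmn1 and 0.0116 for Nefl. At that adjusted threshold 18 genes of the other lists were called higher and 20 lower, and 2057 of all genes were called. Leaving out 1 mouse at a time gave 1 to 2 of the 10 genes higher, 1 to 4 lower, 22 to 35 and 24 to 38 genes of the other lists, and 2654 to 4817 of all genes. Log2 differences of the ratios to Nefl then lay between 1.07 and 1.17 (Nefm), 1.07 and 1.29 (Nefh) and 1.88 and 2.08 (Ina), and that of Gap43 to Tubb3 between -0.38 and -0.29. Signs turned for 3 of the 10 genes and 1 other: Mapt (-0.01 without the second bigenic mouse, -0.02 with the GC and length trend removed), Stmn3 (-0.12 with array weights, -0.16 and -0.04 under those 2 changes, the first called lower at a limma adjusted p-value of 0.0453), Dpysl2 (-0.02 without the third bigenic mouse) and Stmn4 (-0.19 with array weights, where it was called lower, -0.15 without the second bigenic mouse). Leaving out 1 mouse at a time, Mapt lay between -0.01 and 0.11, Stmn3 between -0.16 and 0.10, Dpysl2 between -0.02 and 0.10 and Stmn4 between -0.15 and 0.17. The causes were not tested. With 3 against 4 mice the exact test of a ratio cannot go below 0.0571.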

Other observations

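Of 14 genes listed as growth associated other than Gap43, 8 were downregulated and 2 upregulated, with a median log2(fold change) of -0.35 against 0.03 over all genes tested. The list was not limited to genes that promote growth. Nrn1, encoding the neurite-promoting protein neuritin, had 5796 ± 462 normalized counts in nontransgenic and 2631 ± 295 in bigenic mice (log2(fold change) -1.14, limma adjusted p-value = 4.78e-05). Rtn4, encoding Nogo, an inhibitor of axon growth, had 21383 ± 1465 and 12119 ± 1603 (log2(fold change) -0.83, limma adjusted p-value = 0.000371). The 2 that rose were the cell adhesion genes L1cam (log2(fold change) 0.82) and Ncam1 (0.22), which no longer passed in 5 of the 8 fits that left out 1 mouse (the third or the fourth bigenic, or the first, the second or the third nontransgenic mouse). Of 27 actin regulators, 9 were downregulated and 1, the cofilin phosphatase Ssh1 (0.76), upregulated (9 and 3 by limma's voom), with a median log2(fold change) of -0.17. Over all genes tested 15.4% were lower and 20.5% higher. Among those that fell were Wasf1 (-0.69, limma adjusted p-value = 0.000225) and Actr2 (-0.58, limma adjusted p-value = 0.000180), which act together in nucleating branched actin. Without the second bigenic mouse the lists had 9 of 14 and 9 of 27 genes lower, against 20.2% of all genes.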
